A study of Solanum tuberosum with 6 samples.

Results

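CSP41b, CSP41a and ribosomal protein S21 are nuclear genes, of which the first pair encodes RNA-binding proteins of the chloroplast and the last a protein of the bacterial type of ribosome. They were LOC102598488 (chloroplast stem-loop binding protein b, CSP41b), LOC102586495 (chloroplast stem-loop binding protein a, CSP41a) and LOC102602305 (30S ribosomal protein S21), 3 of the 32768 genes in the count table, and 3 of 3 passed the filter on low counts that 19630 genes passed. They were chosen by their proteins' abundance, which the study lists as differing between the 2 leaf bulks compared here. It lists both CSP41 proteins as lower and the S21 protein as higher in bulk D than in bulk C. The genes' transcript counts in the same libraries were already known, so that their differences between the bulks are given as a description and without a test.

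The libraries were made from untreated leaves of greenhouse-grown potato at full anthesis. The plants belonged to the diploid F1 population 15-1, raised by crossing a Solanum hybrid of several species to S. chacoense. Both bulks had low glycoalkaloid contents, and bulk C had high and bulk D low phytotoxic potential, the inhibition of mustard seedlings by leaf extract. Each bulk pooled leaves of 3 F1 individuals, so no library stands for a genotype. The study's methods call the replicates of a bulk biological without saying whether each came from separate plants or a separate pooling, and p-values measure only the spread between these libraries. Values of 3 libraries of bulk C (C1, C2, C3) and 2 libraries of bulk D (D1, D2) were used, and D3 is not analysed here. In the count table each library name was taken to belong to the field after it, because the first name heads the gene names. An earlier analysis had settled this reading by closeness to the study's own fold changes. The separation of the bulks is therefore not independent of the study's result. Read without this move, C3 alone of the 5 libraries changes its bulk, and for this reason results are also given without C3. The libraries held 22070364 to 22769554 counts, and the leaf marker RBCS-C, a small subunit of Rubisco, had 164260 to 181549 counts in them with a log2 FC of 0.08 ± 0.11 (SE).

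Chloroplasts keep a small genome that is transcribed and translated inside the organelle, but most proteins that process, protect and translate its transcripts are encoded in the nucleus and imported. In Arabidopsis, CSP41a and CSP41b form complexes that bind plastid messenger and ribosomal RNAs, and the spinach protein CSP41 was found as a factor that binds and cleaves the stem-loop at the 3′ end of the petD transcript. S21 belongs to the small (30S) subunit of the bacterial type of ribosome, which chloroplasts and, in a diverged form, mitochondria have, and the study's name for this gene gives no compartment. In the study's gene ontology table all 3 genes stand under rRNA binding, CSP41a also stands under poly(U) and single-stranded RNA binding, CSP41b under polysaccharide binding and S21 under structural constituents of the ribosome.

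Transcripts of CSP41b and CSP41a were more abundant in every library of bulk C than in any library of bulk D, by 1.25-fold and 1.36-fold, and those of S21 differed by less and overlapped. In the edgeR fit across all genes, 34.4% of the tested genes had an adjusted p under 0.05. Of all tested genes, 15.8% were upregulated in C and 18.6% downregulated. The lowest library of C was above the highest library of D in 26.8% of the tested genes, which is the background for the separation of the CSP41 transcripts. In bulk leaf RNA, fewer cells of a type and less RNA per cell cannot be told apart.

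CSP41b, the b form of the stem-loop binding protein, lies at positions 295437 to 299393 of an unplaced scaffold of the SolTub_3.0 assembly. It had 13327 counts in C1, 15530 in C2 and 15478 in C3, and 13245 in D1 and 11768 in D2. As CPM, counts scaled to library size with TMM factors (trimmed mean of M-values), these were 629, 680 and 702 for C and 539 and 529 for D. Before scaling, C1 stood only just above D1. Bulk C averaged 670 ± 37.4 CPM (SD, n = 3) and bulk D 534 ± 6.81 CPM (SD, n = 2), and the log2 FC of C over D was 0.33 ± 0.09 (SE), 1.25-fold.

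CSP41a, the a form, lies at positions 260109 to 263242 of another unplaced scaffold. It had 6276, 7125 and 7649 counts in C1, C2 and C3 and 5768 and 5200 in D1 and D2. All 3 libraries of C were above both libraries of D in raw counts as well as after scaling. The scaled values of C were 296, 312 and 347 CPM, those of D were 235 and 234 CPM, with means of 318 ± 25.9 CPM (SD, n = 3) and 234 ± 0.573 CPM (SD, n = 2). The log2 FC was 0.44 ± 0.09 (SE), 1.36-fold, the largest of the 3 genes. The libraries of D were nearly equal for this gene, closer together than the counting error of 1.14 to 1.39% would bring them on average.

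S21, the ribosomal protein, lies at positions 964778 to 967946 of an unplaced scaffold. It had 10071, 9320 and 10276 counts in C1, C2 and C3 and 8913 and 9214 in D1 and D2. After scaling, C had 475, 408 and 466 CPM, D had 363 and 414 CPM. The bulks overlapped, since D2 stood above C2 although below C1 and C3. Bulk C averaged 450 ± 36.5 CPM (SD, n = 3) and bulk D 388 ± 36.6 CPM (SD, n = 2), which is a log2 FC of 0.21 ± 0.10 (SE), 1.16-fold. The study lists the S21 protein as higher in bulk D, whereas the mean of these transcripts was slightly higher in bulk C. For both CSP41 genes, protein and transcript differed in the same direction.

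**Figure D1:**
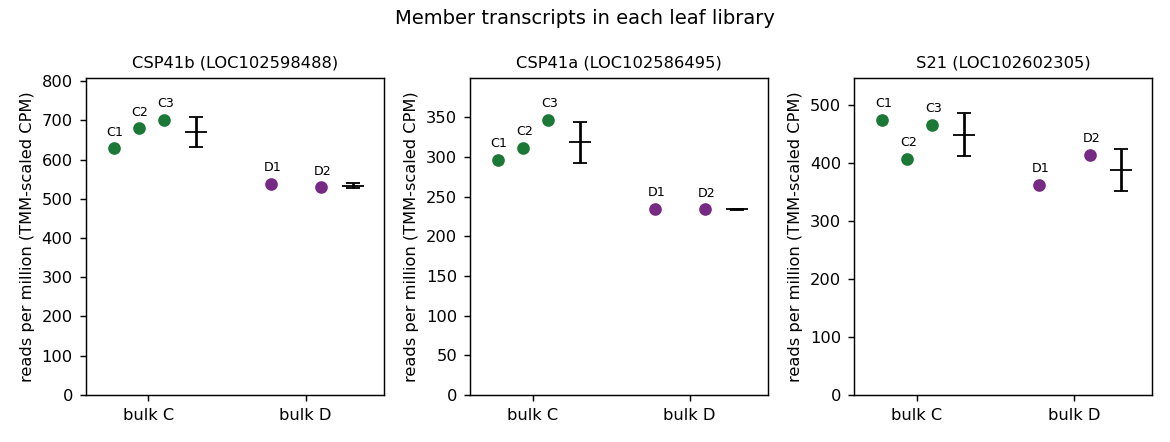
TMM-scaled CPM (vertical axes, from 0) of CSP41b, CSP41a and S21 in the 3 libraries of bulk C (green) and the 2 of bulk D (purple), with the mean and SD of each bulk in black. The lowest C library of CSP41b (629 CPM) and of CSP41a (296 CPM) lies above both D libraries, whereas for S21 library D2 (414 CPM) lies above C2 (408 CPM).

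The spread between libraries of a bulk was larger than counting error in both bulks, except for CSP41a in bulk D. The counting error of a single library was 0.802 to 1.39% for the 3 genes. The coefficient of variation (CV, the SD as a percentage of the mean) in bulk C was 5.58% for CSP41b, 8.15% for CSP41a and 8.12% for S21. In bulk D it was 1.27%, 0.245% and 9.42% for the same genes. Over the 459 tested genes with a mean count at least as high as that of CSP41a, the median CV was 6.41% in C and 6.38% in D. CSP41b and CSP41a were below this median in D, and S21 was above it in both bulks, as CSP41a was in C. With 2 libraries in D, a low CV is weakly determined.

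The differences of the CSP41 genes did not rest on a single library. With each library left out in turn, the log2 FC was 0.29 to 0.36 for CSP41b and 0.38 to 0.48 for CSP41a. Without C3 the values were 0.29 ± 0.11 and 0.38 ± 0.10 (SE). S21 was less even, at 0.11 ± 0.12 without D1 and 0.31 ± 0.12 (SE) without D2. With the header read as it stands, C3 joined D and the bulks overlapped for all 3 genes, with log2 FCs of 0.15 ± 0.17 for CSP41b, 0.16 ± 0.20 for CSP41a and 0.09 ± 0.16 (SE) for S21.

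The scaling of the libraries moved all 3 values together. TMM factors were 0.938 to 1.00 in C and 1.01 and 1.08 in D, so that scaling raised C against D. With library totals alone, the median log2 FC of all tested genes moved by -0.10, and the log2 FCs became 0.23 ± 0.08 for CSP41b, 0.34 ± 0.09 for CSP41a and 0.11 ± 0.07 (SE) for S21. The order of the 3 genes was the same in both scalings, which a shift common to all genes cannot change.

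**Figure D2:**
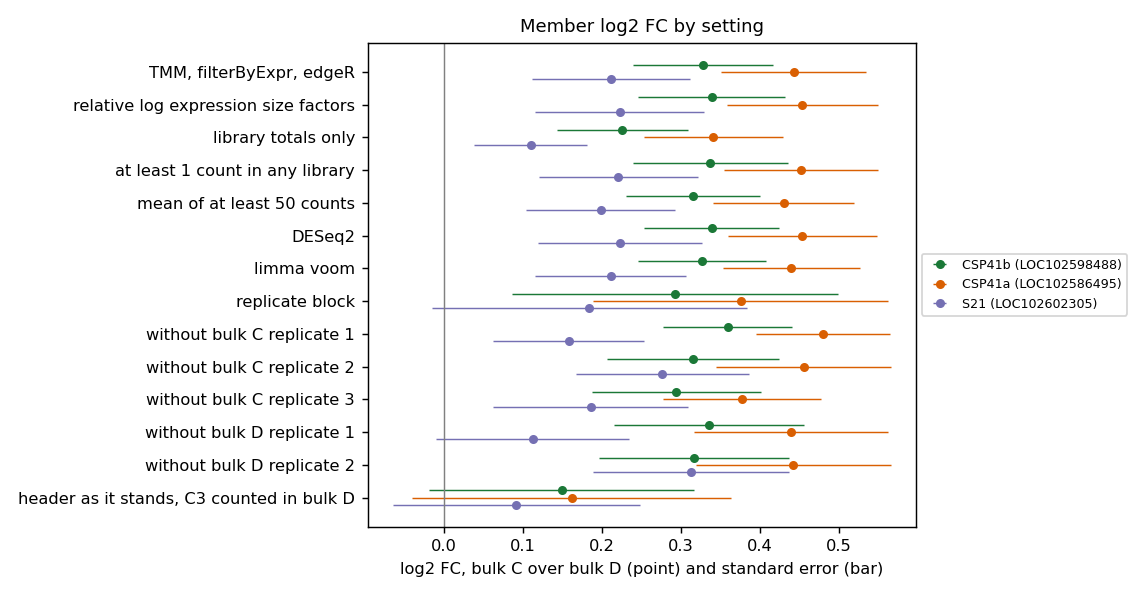
Log2 FC of bulk C over bulk D (horizontal axis, points) with its standard error (bars) for CSP41b, CSP41a and S21 under each setting (vertical axis). Every point lies above 0, and the lowest of each gene are those with the header read as it stands, 0.15, 0.16 and 0.09.

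A ratio of counts within a library does not depend on the scaling. The count of CSP41b over that of CSP41a was 2.12, 2.18 and 2.02 in C1, C2 and C3 and 2.30 and 2.26 in D1 and D2. The ratio was lower in each library of C than in either of D, as the larger log2 FC of CSP41a implies. As a share of the counts of both genes, CSP41b took 68.0% (95% Wilson interval 67.3 to 68.6%) in C1, 68.6% (67.9 to 69.2%) in C2 and 66.9% (66.3 to 67.5%) in C3. The share in D was 69.7% (69.0 to 70.3%) in D1 and 69.4% (68.7 to 70.0%) in D2. The intervals cover counting error only. Those of C2 overlapped with both of D, and those of C1 and C3 did not overlap with either. Lengths of the transcripts were not used, so the ratio compares libraries and not the levels of the 2 genes.

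S21 did not follow the CSP41 genes closely. Its count over that of CSP41a was 1.31 to 1.60 in C, with C1 highest, and 1.55 and 1.77 in D. Over that of CSP41b it was 0.756, 0.600 and 0.664 in C1, C2 and C3 and 0.673 and 0.783 in D1 and D2. Both ratios overlapped between the bulks. In scaled CPM, S21 was at its highest and both CSP41 genes were at their lowest in C1 among the libraries of C. Over the 5 libraries, the distance between log2 CPM values centred on each gene's mean was 0.15 between CSP41b and CSP41a, 0.31 between CSP41b and S21 and 0.36 between CSP41a and S21.

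**Figure D3:**
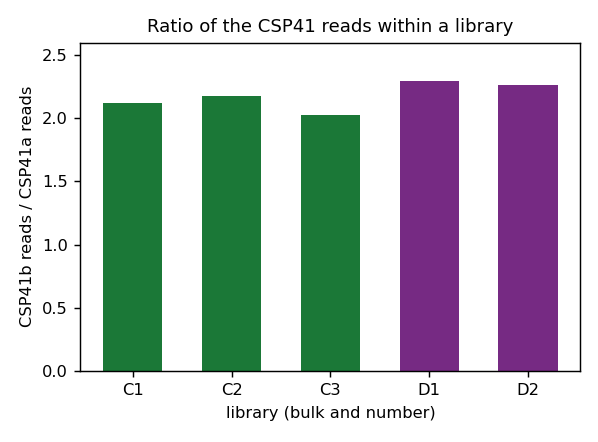
Counts of CSP41b divided by counts of CSP41a (vertical axis, from 0) in each library of bulk C (green) and bulk D (purple). The libraries of C stand at 2.02 to 2.18 and those of D at 2.26 and 2.30.

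The transcripts that CSP41 proteins bind are made from the plastid genome, and some of these could be read in the same libraries. Of 78 plastid protein-coding symbols in the RefSeq annotation, 11 were in the count table and 10 of these were tested. All 11 belong to genes known to carry introns in plants of this family, and ndhB had 1 count in all. The libraries were enriched for polyadenylated RNA, which most plastid transcripts are not, and plastid protein-coding counts were 0.0236 to 0.0279% of the total in C and 0.0180 and 0.0200% in D. Summed counts of plastid transfer RNA entries were also higher in C, at 6078, 4788 and 4477 against 3336 and 3130 in D. Whether the libraries kept different amounts of RNA that is not polyadenylated was not tested. The list of plastid-encoded genes was formed after the table had been seen.

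Of the 10 plastid-encoded transcripts, 5 were called higher in C in the edgeR fit (adjusted p under 0.05 over all genes) and 5 did not pass the threshold. None was called lower in C, either adjusted or with an unadjusted p under 0.05, by edgeR, DESeq2 or limma's voom method. Each of these methods called the same number higher. The median log2 FC of the 10 was 0.51, beside -0.01 over all tested genes, and the share called upregulated over all genes was 15.8%. With D1 left out only atpF and clpP passed the threshold, and rpoC1 and ndhA (both adjusted p = 0.11, edgeR) and rps16 did not. With D2 left out 7 passed, petB and petD among them, and without C3 5.

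The plastid-encoded transcripts called higher in C belong to several plastid machines. atpF, for a subunit of the plastid ATP synthase, had 2632, 2139 and 1959 counts in C and 1543 and 1376 in D. Its values were 102 ± 19.2 CPM (SD, n = 3) and 62.3 ± 0.632 CPM (SD, n = 2), and the log2 FC was 0.71 ± 0.13 (SE, adjusted p = 0.0013, edgeR). clpP, for the proteolytic subunit of the Clp protease, had 1387, 1169 and 1230 counts in C against 980 and 942 in D, with a log2 FC of 0.48 ± 0.11 (SE, adjusted p = 0.0047, edgeR). ndhA, for a subunit of the NADH dehydrogenase-like complex, had 518, 530 and 438 counts in C against 331 and 395 in D, and its log2 FC was 0.53 ± 0.14 (SE, adjusted p = 0.012, edgeR). The bulks did not overlap in any of these after scaling. rpoC1, for a subunit of the plastid-encoded RNA polymerase, had 66, 66 and 62 counts in C against 28 and 40 in D, a log2 FC of 1.01 ± 0.27 (SE, adjusted p = 0.013, edgeR). Its mean is under the 100 counts set for naming genes, and it was named after its values had been seen.

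Of the plastid-encoded genes, 3 were for proteins of the plastid ribosome, of the same bacterial type as S21. rps16, for protein S16 of the small subunit, had 281, 258 and 241 counts in C against 183 and 209 in D. Its log2 FC was 0.49 ± 0.15 (SE, adjusted p = 0.023, edgeR), without overlap. Leaving out C1 (adjusted p = 0.064) or D1 (adjusted p = 0.18), scaling by library totals alone (adjusted p = 0.054) and a replicate block (adjusted p = 0.063) each ended this call in the edgeR fit. rpl2 and rpl16, for proteins of the large subunit, had log2 FCs of 0.17 ± 0.18 and 0.01 ± 0.24 (SE), and neither passed the threshold. rpl2 has 2 copies in the plastid genome, and how the counting treated reads that fit both is not given in the sources used here.

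petD, the transcript that spinach CSP41 is known to cleave, did not pass the threshold. It had 118, 106 and 239 counts in C and 66 and 151 in D, so that D2 exceeded C1 and C2. The log2 FC of petD was 0.58 ± 0.38 (SE, adjusted p = 0.27, edgeR). petB, which lies before petD on the plastid genome and encodes cytochrome b6 of the same complex, had 312, 219 and 442 counts in C and 140 and 316 in D, with the same log2 FC of 0.58 ± 0.34 (SE, adjusted p = 0.21, edgeR). Both were highest in C3 and lowest in D1. The count of petB over that of petD was 2.64, 2.07 and 1.85 in C and 2.12 and 2.09 in D, which overlap. ycf3, for an assembly factor of photosystem I, had a log2 FC of 0.19 ± 0.12 (SE) and did not pass the threshold either.

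**Figure D4:**
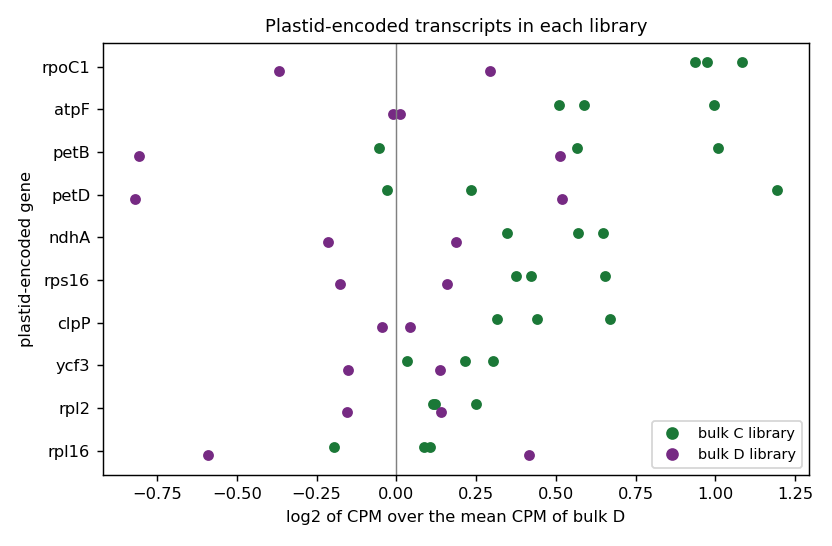
Log2 of the CPM in each library over the mean CPM of bulk D (horizontal axis) for the 10 tested plastid-encoded genes (vertical axis), with bulk C in green and bulk D in purple. The green points lie to the right of both purple points for rpoC1, atpF, ndhA, rps16 and clpP, and the bulks overlap for petB, petD, ycf3, rpl2 and rpl16.

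The study's gene ontology table gives further nuclear genes that share the setting of the 3 genes. Its lists hold only genes that the study had itself called between these bulks, so that a gene of them passing the threshold here is not independent evidence, and the values serve as a description. Sigma factors, the nuclear-encoded subunits that direct the plastid-encoded RNA polymerase to its promoters, were named by 5 genes. All 5 were higher in each library of C than in any of D, with log2 FCs of 0.30 to 0.65 and a median of 0.56. Over all tested genes 26.8% were separated in this way, but the list was drawn from called genes and cannot be read against that share. With a replicate block, edgeR called 3 of the 5 higher in C. LOC102599083 had 1263, 1336 and 1217 counts in C against 1005 and 722 in D, which gave a log2 FC of 0.65 ± 0.10 (SE). LOC102585592 had 2898, 3353 and 3483 counts in C against 2505 and 2122 in D, which gave a log2 FC of 0.58 ± 0.09 (SE).

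Beside CSP41a, 4 genes were listed under poly(U) RNA binding, the binding of uridine-rich stretches. Of these 3 were higher in C, with log2 FCs of 0.33 to 0.44, and 1 was lower. Over all tested genes 15.8% were called higher and 18.6% lower, but this list too was drawn from called genes. With a replicate block, edgeR called 0 of the 4 higher in C and 1 lower. The most abundantly counted was LOC102601319, with 26114, 27708 and 27356 counts in C and 22640 and 19830 in D. Its log2 FC of 0.44 ± 0.09 (SE) was as large as that of CSP41a. LOC102583118 went the other way, with 258, 271 and 234 counts in C against 477 and 364 in D, which gave a log2 FC of -0.63 ± 0.12 (SE).

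The rRNA binding list, which holds all 3 genes, was mixed. Of its 41 other genes 12 were called upregulated and 24 downregulated in C by edgeR, and 5 did not pass the threshold, with a median log2 FC of -0.41. Over all tested genes the shares were 15.8% and 18.6%, but the list was drawn from called genes and cannot be read against them. Without D1, 6 were called upregulated and 23 downregulated, and with a replicate block 5 and 15. The upregulated LOC102599390 had 461, 455 and 442 counts in C against 288 and 272 in D, which gave a log2 FC of 0.78 ± 0.11 (SE). The downregulated LOC102593885 had 162, 157 and 143 counts in C against 603 and 539 in D, which gave a log2 FC of -1.80 ± 0.12 (SE). All 4 genes listed under binding to the rRNA of the small ribosomal subunit were lower in C, at -0.62 to -0.40. Both listed for the large subunit were lower too, at -0.70 and -0.49. These genes also stand in the rRNA binding list and are already among its 24 downregulated genes. The table does not say in which compartment these proteins work. Among genes with curated symbols for proteins of the cytosolic ribosome, RPL13 had 5511, 5370 and 5283 counts in C and 7246 and 7489 in D, and fell by 0.37 on the log2 scale (SE 0.09, adjusted p = 0.0089, edgeR). RPS4 had a log2 FC of -0.03 ± 0.10 (SE, adjusted p = 0.82, edgeR).

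**Figure D5:**
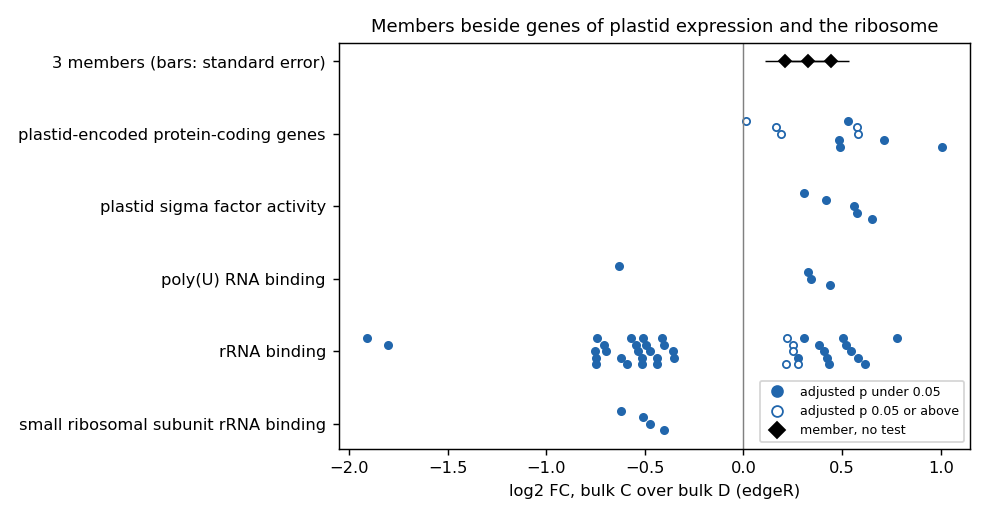
Log2 FC of bulk C over bulk D (horizontal axis) of CSP41b, CSP41a and S21 (diamonds, bars for the SE) and of the other genes of each list (vertical axis), filled where the adjusted p was under 0.05. The 5 sigma factor genes lie at 0.30 to 0.65, whereas the rRNA binding genes lie on both sides of 0, from -1.91 to 0.78. The genes of the small-subunit list are shown in the rRNA binding list as well. Apart from the plastid-encoded list, every list was drawn from genes the study had already called.

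The genes beside the 3 loci did not share 1 direction. Of the 6 nearest to CSP41b, 4 were upregulated in C (adjusted p under 0.05, edgeR), with log2 FCs of 0.28 to 0.94, and 2 did not pass the threshold, where 15.8% of all tested genes were upregulated. Neighbouring genes are few and were not tested as a group. The gene that ends 1363 bases before CSP41b, LOC102598155, had a log2 FC of -0.005 ± 0.11 (SE). Of the 4 tested genes nearest to CSP41a, LOC102584745 rose by 0.49 ± 0.12 and LOC102587169 fell by 0.33 on the log2 scale (SE 0.10). RANGAP1, named for an activator of the Ran GTPase, starts 108 bases after the end of CSP41a and had 268, 244 and 200 counts in C against 306 and 312 in D, which gave a log2 FC of -0.29 ± 0.15 (SE, adjusted p = 0.15, edgeR). Beside S21, 1 of 4 tested genes passed the threshold, near the 34.4% of all tested genes. It was LOC102602973, which fell by 0.32 on the log2 scale (SE 0.09).

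By the distance of centred log2 CPM over the 5 libraries, the genes most like CSP41b were LOC102598682 (distance 0.032) and SXD1 (0.036), whose product is tocopherol cyclase, a plastid enzyme of vitamin E synthesis. SXD1 had 784, 908 and 913 counts in C and 788 and 677 in D. Nearest to CSP41a were LOC102601486 (0.033) and LOC102595696 (0.036), and nearest to S21 were LOC102582235 (0.033) and LOC102580864 (0.042). Each was picked as nearest out of 13434 genes, so its distance cannot be set against those between the 3 genes. Over 5 libraries from 2 bulks such likeness is a description of these libraries.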

How the data were processed

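Leaf mRNA was sequenced by the authors as 100-base paired-end reads from a directional kit. Per the labels, alignment used TopHat2 2.0.9 and Bowtie2 2.1.0. The deposited values are raw read counts of genes from HTSeq on SolTub_3.0, without normalization, and all 163840 used were whole. The strand setting of the counting is not given in the sources used here. Of 6 count columns, 1 was not used. The reading of the header, with names moved by 1 field, came from an earlier analysis that had settled it by closeness to the study's own fold changes, and replicate numbers follow the order of the header.

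Genes that passed edgeR's filterByExpr (minimum count 10 in 2 libraries, total 15) were fitted with edgeR 4.0.16 (quasi-likelihood, TMM, Benjamini-Hochberg) in R 4.3.3, and the SE is the log2 FC divided by the square root of F. The fit was tested on simulated data in which all genes had the same spread beyond counting error. Such data cannot show that the calls hold in these libraries. Alternatives were other size factors and filters, DESeq2 1.42.0, limma 3.58.1 (voom), a replicate block, leaving out single libraries and a limit on the log2 FC. Reading the header as it stands was added after the data were seen. Centred values used log2 CPM with a prior count of 2.

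The 3 genes and the lists were chosen with earlier results of these data known. Of each list, called genes whose bulks did not overlap, with a mean count of 100 or more, were named in the order of their log2 FC (up to 5 a direction), and of the loci the 3 nearest annotated genes on each side. Symbols matched RefSeq for 32736 genes. Lists by product name (plastid translation, chloroplast RNA binding, cytosolic ribosome) and comparisons of proteins and promoters were planned but not run, because the annotation used here gives neither product names nor sequences. Plastid-encoded genes and the study's gene ontology lists took their place.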

Additional observations from a re-analysis of the deposited data

How the results depend on the processing

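The log2 FCs of CSP41b, CSP41a and S21 were above 0 under all 13 alternatives to the main fit. They moved by more than the spread between libraries for CSP41b and CSP41a with library totals alone (0.23 and 0.34) and with the header as it stands (0.15 and 0.16). With each library left out they were 0.29 to 0.36, 0.38 to 0.48 and, for S21, 0.11 to 0.31. Genes called were 6760 in the main fit (3111 higher and 3649 lower in C) and 4466 to 6849 with a library left out (2029 to 3038 higher, 2394 to 3811 lower), with the lowest total without D2. With library totals alone 1966 were higher in C and 4712 lower, and with an absolute log2 FC of at least 1 there were 1837 (537 higher, 1300 lower). With the replicate number as a block there were 3448 (1396 higher, 2052 lower), and the log2 FCs were 0.29 ± 0.21, 0.38 ± 0.19 and 0.18 ± 0.20 (SE). Same-numbered libraries did not deviate in the same direction (r = -0.40 over 19630 genes, C1 minus C2 against D1 minus D2). The negative sign means that C1 tended to differ from C2 as D2 did from D1. C3 had no part in this correlation, and the numbers follow the order of the header. Whether libraries of the bulks share a batch or a pairing was not tested. With the header as it stands edgeR called 0 genes, with 1301 at an unadjusted p under 0.05, limma's voom method 0 and DESeq2 1. The 5 plastid-encoded genes called higher became 2 to 7 with a library left out, 0 with the header as it stands and 1 with the limit on the log2 FC. The causes of these shifts were not tested. With 1 bulk for each level of phytotoxic potential, that trait cannot be told apart from other differences between the bulked individuals.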

Other observations

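Plastid transfer RNA entries of the count table, which belong in none of the lists above, summed over 30 entries to 6078, 4788 and 4477 counts in C1, C2 and C3 and to 3336 and 3130 in D1 and D2. Each library of C was above both libraries of D in these unscaled sums, and C1 was the highest, as it was for atpF and clpP. The count of atpF over that of clpP was 1.90, 1.83 and 1.59 in C and 1.57 and 1.46 in D, so that C3 stood close to D1.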
